A study of Homo sapiens with 6 samples.

Results

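Interferon-stimulated and antigen presentation genes were examined as a list of 53 gene symbols. A gene counted as measured where a probe named to it was detected (p under 0.01) on 3 or more of 6 arrays. That left 39 of the 53 genes, among 9841 genes tested in all, and 48 of their 53 named probes. TAP1 had a probe that did not reach the detection rule. STAT2, IFI27, IFITM1, OAS2, MX1, MX2, TRIM22, USP18, BST2, HLA-B, HLA-C, PSMB8 and PSMB9 had no probe named to them in the annotation used and were not analysed here. That annotation covered the 17925 probes of the deposited log2 values, while the intensities were given for 47231 probes. Probes outside the 17925 had no gene name here, so these genes may still have been on the array. The 39 measured genes are therefore not the whole programme, and several of its best known members are missing from them.

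PC3 is a human cell line established from a prostate cancer. The cells used here had been given the coactivator PGC1A, a regulator of mitochondrial genes, in a form switched on by doxycycline. In 3 samples the cells were grown without doxycycline, and in 3 they were given it for 2 passages, with 1 Illumina bead array per sample. Both groups held the inducible PGC1A, and doxycycline-treated cells without it were not analysed here, so the effects of the drug and of PGC1A cannot be told apart. The labels do not say whether replicates were separate cultures, so the error behind each p may be that of technical repeats.

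Type I interferons bind the receptor of IFNAR1 and IFNAR2, and interferon gamma binds that of IFNGR1 and IFNGR2. The signal reaches nuclear complexes of STAT proteins, with IRF9 in the type I branch. These bind short promoter elements, the interferon-stimulated response element (ISRE) and the gamma-activated site (GAS). Their targets include sensors of viral RNA and DNA, proteins that block viral replication, and the MHC class I pathway, which shows peptides from inside the cell on its surface. Tumour cells can keep part of this programme active without infection.

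Levels below are log2 signal after background correction and normalization. Changes are log2 fold changes of doxycycline against no doxycycline, each with its standard error (SE). A gene was called at an adjusted p under 0.05 over all 9841 genes tested, using limma with Benjamini-Hochberg adjustment. The arrays detected between 15029 and 16012 probes. Doxycycline replicate 2 stood apart on the first principal component, which held 35.3% of the variance. Arrays of the same replicate number deviated together from their groups, and a second fit took that number as a block.

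With doxycycline 1 member was called, IFI44L, which was lower, where 0.539% of all genes tested were called in either direction and 0.102% were called lower. With the replicate block DDX60 was called lower too, and the background was 1.80% in either direction and 0.447% lower. No member was called higher in either fit. In all, 31 of the 39 members had a change below 0, against 56.6% of all genes tested. The median change of the members was -0.15, and that of all genes tested was -0.026. By replicate number the medians of the members were -0.18, -0.027 and -0.17 for replicates 1, 2 and 3, so replicate 2 lay close to its median of -0.019 over all genes. Without doxycycline replicate 2 the median was -0.17.

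The 3 arrays with doxycycline lay wholly below the 3 without it for 8 members, where 11.3% of all genes did so. These were IFI44L, OAS1, SP110, IFITM3, IFNAR1, IFI16, IFI35 and IFITM2. They lay wholly above for IFIH1, XAF1 and IRF9, where 10.2% of all genes did so. XAF1 met the detection rule only with its treated arrays, being detected on 1 of 3 untreated and 3 of 3 treated arrays. Its place among the higher members, here and in the counts that follow, is therefore no support for a change. The same holds on the lower side for IFITM3, which met the rule only with its untreated arrays. It was detected on 3 of 3 untreated and 2 of 3 treated arrays, and the lower counts here and below include it. Counted by replicate number, 20 members were lower with doxycycline in all 3 pairs (27.1% of all genes) and 5 were higher in all 3 (20.0% of all genes). An unadjusted p under 0.05 was found for 6 members on the lower side (6.61% of all genes) and 3 on the higher side (8.09%). With the replicate block these numbers were 13 (11.8%) and 3 (11.3%).

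**Figure D1:**
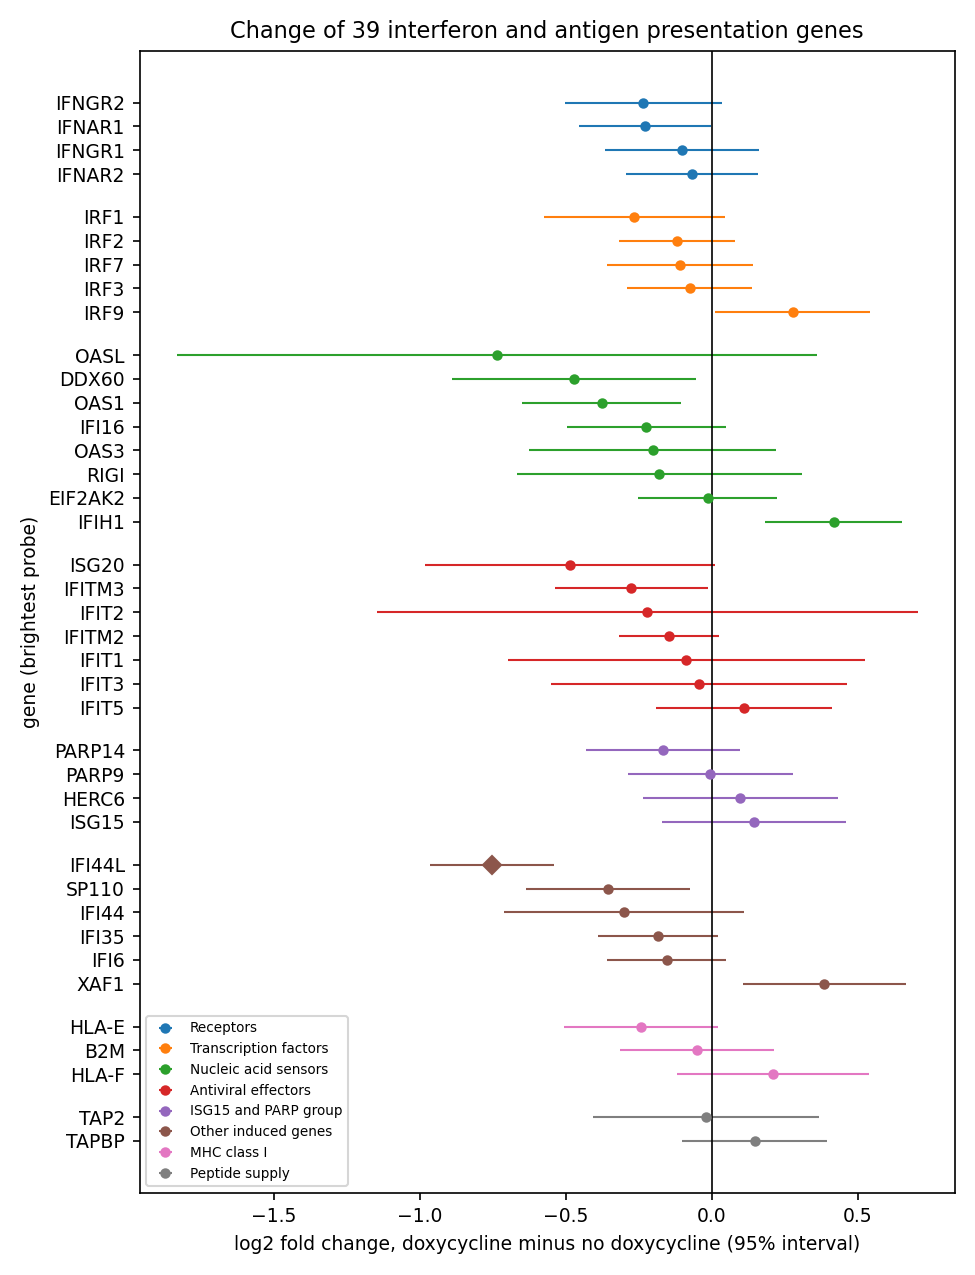
Log2 fold change of each of the 39 measured members (horizontal axis, doxycycline minus no doxycycline, bars are 95% intervals from limma) by gene, coloured by role. The diamond marks IFI44L at -0.75, the 1 member called; the intervals of OASL and IFIT2 are the widest drawn.

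IFI44L encodes an interferon-induced protein that in human cells is known to feed back on the response. Its brighter probe (ILMN_1723912) read 6.71, 6.55 and 6.51 on replicates 1 to 3 without doxycycline and 5.80, 5.93 and 5.78 with it. The groups were well separated, and the differences by replicate number were -0.92, -0.62 and -0.73. IFI44L fell by 0.75 on the log2 scale (SE 0.0914, adjusted p = 0.0291), which is 1.69-fold higher without doxycycline than with it. The change was -0.48 (adjusted p = 0.0199) without background correction. The call was lost when any 1 of the 6 arrays was left out, with changes from -0.80 to -0.69 and adjusted p from 0.0512 to 0.131. A second probe of IFI44L (ILMN_1835092) read 5.14, 5.02 and 5.32 without doxycycline and 5.41, 5.35 and 5.32 with it. That probe lay near background, with detection on 1 of 3 untreated and 3 of 3 treated arrays, and its change of 0.20 (adjusted p = 0.394 over all probes) had the opposite sign. For the mean of both probes the change was -0.28 (adjusted p = 0.184), so the call rests on the brighter probe.

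The promoters of 5 members are shown because their genes carry the results: IFI44L and DDX60 as the members called lower (DDX60 in the blocked fit), IFIH1 as the member with the largest positive change, IFIT1 for its spread by replicate number, and OAS1 for 3 probes with changes of the same sign. Each runs 5′ to 3′ on the strand of its gene from 250 bases before the start to 50 after it, taken from RefSeq on build GRCh38.p14. Capitals mark the ISRE core, GAAANNGAAA, on either strand, and in OAS1 the GAS letters, TTCNNNGAA.
IFI44L, chr1:78620198-78620497, plus strand: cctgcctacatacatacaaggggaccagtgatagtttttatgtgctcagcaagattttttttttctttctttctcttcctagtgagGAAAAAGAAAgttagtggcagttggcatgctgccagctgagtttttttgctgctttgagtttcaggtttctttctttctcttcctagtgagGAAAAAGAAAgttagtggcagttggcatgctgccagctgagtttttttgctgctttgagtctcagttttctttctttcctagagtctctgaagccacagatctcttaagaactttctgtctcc
DDX60, chr4:168318703-168319002, minus strand: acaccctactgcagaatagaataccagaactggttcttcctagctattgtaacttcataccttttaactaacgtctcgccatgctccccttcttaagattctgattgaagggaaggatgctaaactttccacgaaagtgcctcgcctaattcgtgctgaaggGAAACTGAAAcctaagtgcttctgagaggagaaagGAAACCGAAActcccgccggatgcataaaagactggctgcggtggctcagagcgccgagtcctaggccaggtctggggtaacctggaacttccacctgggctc
IFIH1, chr2:162318635-162318934, minus strand: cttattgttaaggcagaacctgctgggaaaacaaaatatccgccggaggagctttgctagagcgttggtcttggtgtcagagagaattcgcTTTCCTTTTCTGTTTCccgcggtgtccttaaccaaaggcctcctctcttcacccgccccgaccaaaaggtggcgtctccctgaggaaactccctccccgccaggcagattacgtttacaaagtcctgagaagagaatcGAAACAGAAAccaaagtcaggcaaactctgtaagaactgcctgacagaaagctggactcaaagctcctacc
IFIT1, chr10:89392373-89392672, plus strand: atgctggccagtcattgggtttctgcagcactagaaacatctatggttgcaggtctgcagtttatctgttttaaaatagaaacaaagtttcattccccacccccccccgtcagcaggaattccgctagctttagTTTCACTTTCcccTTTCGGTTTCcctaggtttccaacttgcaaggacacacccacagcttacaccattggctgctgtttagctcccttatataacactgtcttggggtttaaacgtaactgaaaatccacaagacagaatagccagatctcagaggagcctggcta
OAS1, chr12:112906712-112907011, plus strand: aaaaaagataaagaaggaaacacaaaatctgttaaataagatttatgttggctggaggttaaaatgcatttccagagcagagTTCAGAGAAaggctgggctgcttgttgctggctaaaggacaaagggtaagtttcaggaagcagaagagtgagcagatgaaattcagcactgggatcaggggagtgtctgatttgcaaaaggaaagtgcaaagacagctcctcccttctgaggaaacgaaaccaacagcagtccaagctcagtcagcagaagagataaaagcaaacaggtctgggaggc

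IFI44L held the ISRE core with its first base 164 and 73 bases before the start. In DDX60 the core began 88 and 53 bases before the start, with a GAS match at 124. The start-proximal match of IFIH1 lay 21 bases before the start, and a pair of overlapping matches on the other strand lay at 159 and 153. IFIT1 held 2 matches, both on the other strand, at 116 and 103. Of the letters searched, the OAS1 window matched only GAS, at 168. It also holds gaaacgaaa, whose GAAA repeats lie closer together than the ISRE core letters allow. Repeats spaced in that way were not counted for any gene. Promoters matched 41 of the 53 genes. Those of IRF2, IRF3, IRF7, IFNAR2, IFIT2, IFITM2, OAS2, OASL, MX2, TRIM22, USP18 and HLA-E were not used here. Some genes have several promoters, and a gene was counted where any of them held the letters. By that count the ISRE core occurred in 19 of the 31 measured members with a promoter (61.3%) and in 4.38% of all 27305 genes in the table. GAS letters occurred in 7 of the 31 (22.6%) and in 9.38% of all genes. Counted by promoter, the shares over all 35116 were 3.57% and 7.66%. Among the promoters shown, the ISRE core stood in genes that were lower with doxycycline (IFI44L, DDX60). It also stood in IFIH1, higher in all 3 pairs but not called, and in IFIT1, whose pairs had both signs. The directions of all 19 members with the core were not counted. A match is a description of the letters and not a bound site.

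**Figure D2:**
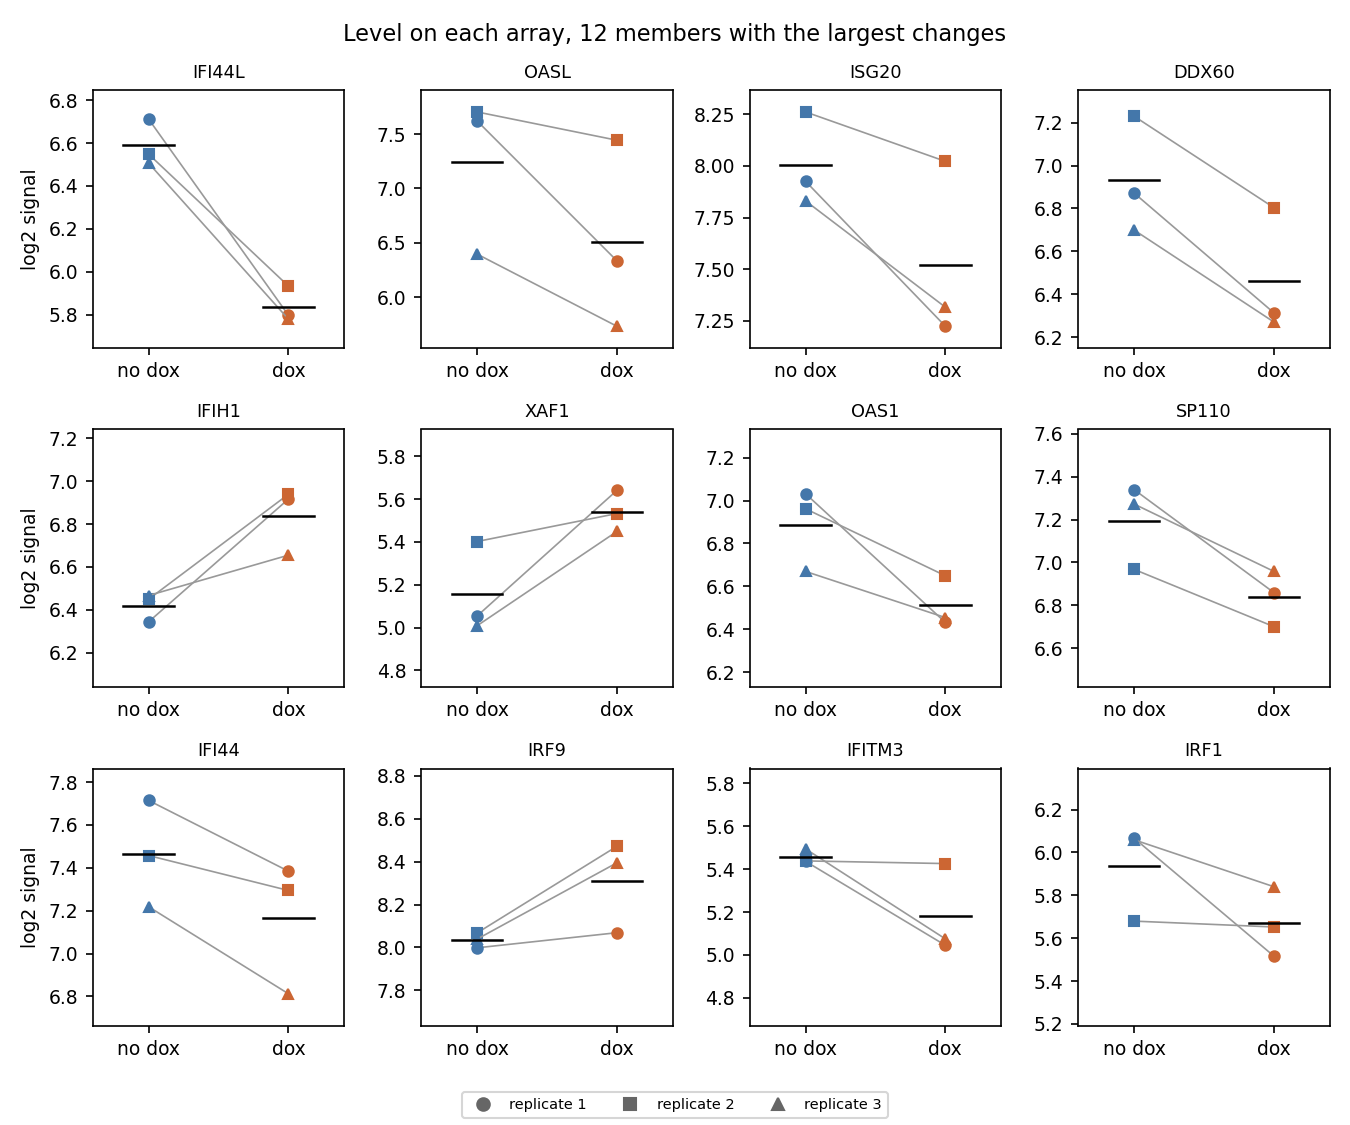
Log2 signal on each array (vertical axis) without and with doxycycline for the 12 members with the largest changes; marker shapes give the replicate number, grey lines join the same number and black bars are group means. IFI44L, OAS1, SP110 and IFITM3 separate the groups downward, IFIH1, XAF1 and IRF9 upward, and all 3 lines of OASL slope down from widely different heights.

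Among the receptors, all 4 had changes below 0 and none was called. IFNAR1, a chain of the type I receptor, read 8.58, 8.32 and 8.44 without doxycycline and 8.28, 8.11 and 8.26 with it, so every treated array lay below every untreated one by a narrow margin. Its change was -0.23 (SE 0.0974, adjusted p = 0.335). IFNGR2, the signalling chain of the interferon gamma receptor, was at -0.23 (adjusted p = 0.403) and was lower in all 3 pairs by a similar amount, from -0.26 to -0.20. IFNGR1, the chain that binds interferon gamma, was at -0.10 (adjusted p = 0.72). IFNAR2, the other type I chain, was at -0.068 on its brighter probe and 0.097 on its other probe, which was detected on 1 of 3 untreated and 2 of 3 treated arrays.

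The measured transcription factors were IRF1, IRF2, IRF3, IRF7 and IRF9, and none was called. IRF9, the DNA-binding subunit of the type I complex, read 8.00, 8.07 and 8.04 without doxycycline and 8.07, 8.47 and 8.39 with it. The groups did not overlap, but doxycycline replicate 1 was level with the highest untreated array to 2 decimals. Its change was 0.28 (SE 0.115, adjusted p = 0.325). IRF1, an activator induced by interferon gamma, read 6.07, 5.68 and 6.06 without and 5.52, 5.65 and 5.84 with doxycycline, with overlapping groups and a change of -0.27 (adjusted p = 0.411). IRF2, known as an antagonist of IRF1, was at -0.12, IRF3, which acts downstream of nucleic acid sensors, at -0.075, and IRF7, which amplifies interferon production, at -0.11. For IRF3 and IRF7 the pair of replicate 2 had the opposite sign to the other two.

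The nucleic acid sensors included changes of both signs. DDX60, a helicase known to assist RNA sensing, read 6.87, 7.23 and 6.70 without doxycycline and 6.31, 6.80 and 6.27 with it. By replicate number the differences were -0.56, -0.43 and -0.43, while replicate 2 was the highest array in both groups and the groups overlapped. DDX60 was at -0.47 (SE 0.181, adjusted p = 0.294) and fell with the replicate block (block SE 0.0700, adjusted p = 0.0431), a call that was not made over all probes (adjusted p = 0.0548). IFIH1, the sensor MDA5 of long double-stranded RNA, read 6.34, 6.45 and 6.47 without and 6.92, 6.94 and 6.66 with doxycycline. All treated arrays lay above all untreated ones, yet the change of 0.42 (SE 0.101) missed the threshold, with an adjusted p of 0.129 in the first fit and 0.0819 in the blocked one. RIGI, its relative that senses RNA with a triphosphate end, was at -0.18 (adjusted p = 0.732) and lay close to background, detected on 2 of 3 arrays with doxycycline. For EIF2AK2, the kinase PKR, the change was -0.014 with a 95% interval from -0.25 to 0.22. IFI16, a sensor of DNA, was at -0.22 (adjusted p = 0.431) without overlap of the groups.

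The 3 measured members of the oligoadenylate synthetase family, whose enzymes OAS1 and OAS3 make the activator of RNase L, all lay below 0 in the main fit and in each alternative run. OAS1 read 7.03, 6.96 and 6.67 without doxycycline and 6.43, 6.65 and 6.45 with it on its brightest probe. Its groups came close without overlapping, and the change was -0.38 (SE 0.118, adjusted p = 0.224, blocked 0.0969). The other 2 probes of OAS1 were at -0.49 and -0.34 (adjusted p over all probes 0.204 and 0.387). The probe at -0.34 lay near background, with detection on 3 of 3 untreated and 2 of 3 treated arrays. OAS3 was at -0.20 (adjusted p = 0.653), with differences by replicate number of -0.18, -0.22 and -0.21. Its change was -0.041 without no-doxycycline replicate 1 and -0.37 without doxycycline replicate 1. OASL, a related protein without synthetase activity, read 7.62, 7.70 and 6.40 without doxycycline and 6.34, 7.44 and 5.73 with it. The differences by replicate number were -1.29, -0.26 and -0.66, but its arrays of one condition spread over 1.31 and 1.71, more than the change of -0.74 (SE 0.473, adjusted p = 0.517, blocked 0.0977). For OASL the change was -1.21 without doxycycline replicate 2 and -0.35 without doxycycline replicate 3.

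**Figure D3:**
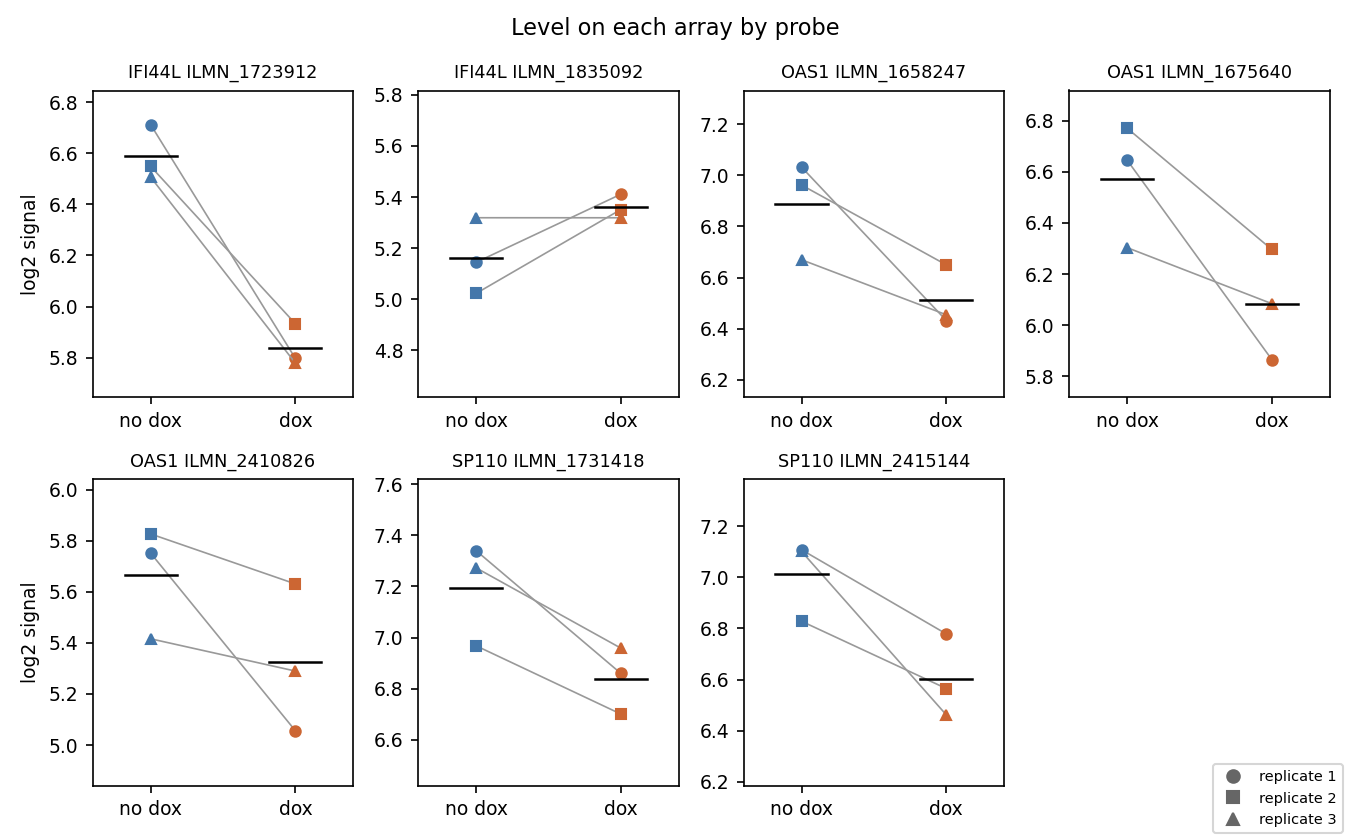
Log2 signal on each array (vertical axis) for every tested probe of IFI44L, OAS1 and SP110, without and with doxycycline; markers, grey lines and black bars give replicate numbers, pairs and group means. The probes of IFI44L differ in sign, at -0.75 and 0.20, and every probe of OAS1 and SP110 has a lower mean with doxycycline.

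The antiviral effectors had 7 measured members and no call. ISG20, an exonuclease that degrades viral RNA, read 7.93, 8.26 and 7.83 without doxycycline and 7.22, 8.02 and 7.32 with it. Doxycycline replicate 2 lay within the range of the untreated arrays, and the change was -0.48 (SE 0.215, adjusted p = 0.355, blocked 0.0730). Without doxycycline replicate 2 the change of ISG20 was -0.74. IFITM3 and IFITM2, membrane proteins that hinder viral entry, are close relatives, and whether their probes read each other's transcript was not analysed here. IFITM3 read 5.44, 5.44 and 5.49 without and 5.04, 5.43 and 5.07 with doxycycline, near background, with detection on 2 of 3 treated arrays and a change of -0.27 (adjusted p = 0.325), or -0.14 without background correction. IFITM2 was at -0.15 (adjusted p = 0.416), with all treated arrays below all untreated ones.

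The IFIT family includes proteins that bind viral RNA, and its genes are among those that respond most to interferon. IFIT2 read 9.10, 9.17 and 7.92 without doxycycline and 8.36, 9.22 and 7.96 with it. Replicate 3 was low in both groups and replicate 2 high in both, so the arrays of one condition spread over 1.25 and 1.26 while the change was -0.22 (SE 0.4, adjusted p = 0.833). IFIT1 read 8.81, 8.71 and 8.06 without and 8.35, 8.95 and 8.03 with doxycycline, and its change was -0.087, with a 95% interval from -0.70 to 0.52. IFIT3 read 7.25, 7.24 and 6.53 without and 6.95, 7.26 and 6.69 with it, a change of -0.043 with an interval from -0.55 to 0.46. IFIT5 was at 0.11 (adjusted p = 0.735). These intervals do not show that the IFIT genes kept their level.

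Because of this spread, the replicate number itself was tested as a term of the blocked fit, a test added after the values had been seen. By this test 0 members were called, as were 0% of all genes (limma, adjusted p under 0.05). An unadjusted p under 0.05 was found for 15 of the 39 members (38.5%), against 20.7% of all genes tested. The smallest unadjusted p values were those of OAS3 (0.00111), OASL, DDX60 and IFIT2. The adjusted p of OAS3 was 0.104 and that of IFIT2 was 0.116. The order of the numbers was not the same for all of them. OASL, IFIT1, IFIT2 and IFIT3 were lowest in replicate 3 of both groups, whereas OAS3 and TAP2 were highest in replicate 1 of both groups. OAS3 read 6.52, 6.05 and 6.03 without doxycycline and 6.34, 5.83 and 5.82 with it. What the replicate number stands for is not given in the labels, and its part in these values was not tested further.

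**Figure D4:**
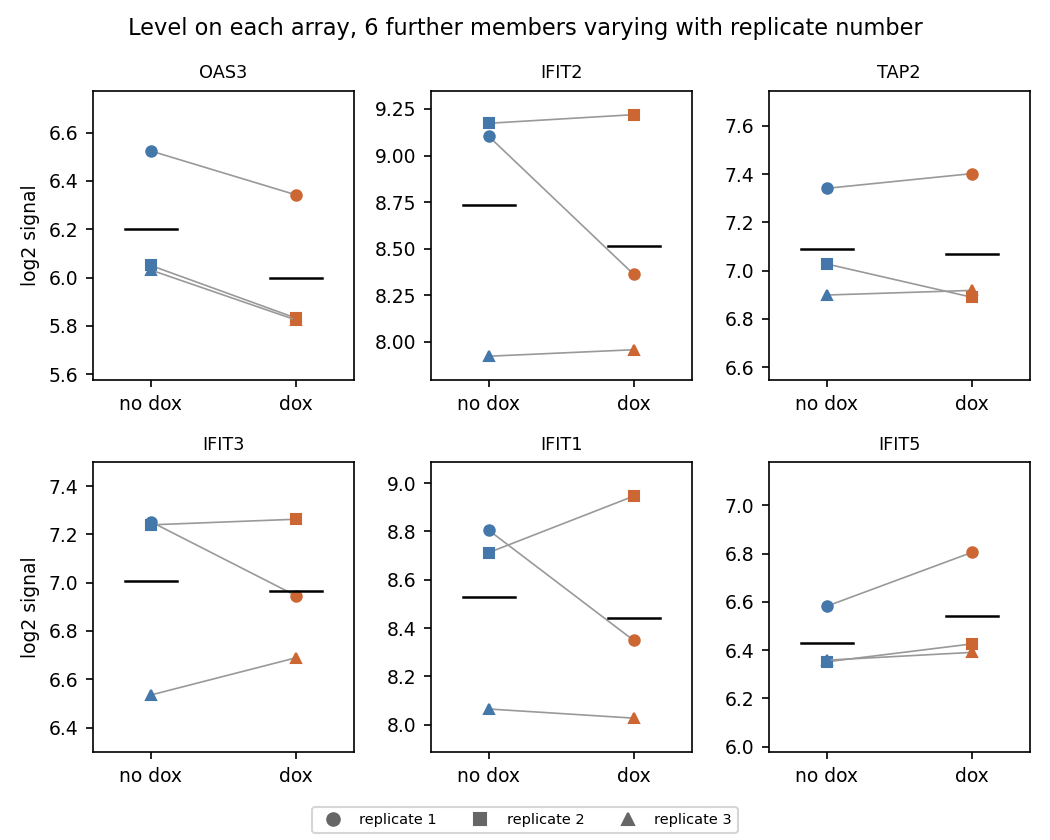
Log2 signal on each array (vertical axis) without and with doxycycline for the 6 members outside the 12 largest changes with the smallest unadjusted p for the replicate number; markers give the number, grey lines join it and black bars are group means. IFIT1, IFIT2 and IFIT3 are lowest in replicate 3 of both groups, and OAS3, TAP2 and IFIT5 are highest in replicate 1 of both.

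ISG15 is a ubiquitin-like modifier, and HERC6 belongs to the family of ligases that includes its human ligase. ISG15 read 10.96, 11.04 and 10.63 without doxycycline and 10.95, 11.22 and 10.88 with it, a change of 0.14 (adjusted p = 0.668) with overlapping groups. Its change was 0.021 without no-doxycycline replicate 3, 0.044 without doxycycline replicate 2 and 0.23 without no-doxycycline replicate 2. HERC6 was at 0.098 (adjusted p = 0.791). PARP14, an ADP-ribosyltransferase, was at -0.17 (adjusted p = 0.54), and PARP9, known as a partner of the ligase DTX3L, was at -0.0056 on its brighter probe and 0.19 on the other.

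Of the other induced genes, SP110, a nuclear body protein, read 7.34, 6.97 and 7.27 without doxycycline and 6.86, 6.70 and 6.96 with it. The groups came close without overlapping, and the change was -0.35 (SE 0.121, adjusted p = 0.254, blocked 0.0754). A second tested probe of SP110 was at -0.41 (adjusted p = 0.183 over all probes). IFI44, the close relative of IFI44L, read 7.71, 7.46 and 7.22 without and 7.38, 7.29 and 6.81 with doxycycline, lower in each pair but overlapping between groups, with a change of -0.30 (adjusted p = 0.486). The change of IFI44 was -0.12 without doxycycline replicate 3 and -0.17 without no-doxycycline replicate 1. XAF1, known to promote cell death, went the other way. It read 5.05, 5.40 and 5.01 without doxycycline and 5.64, 5.53 and 5.45 with it, a change of 0.39 (SE 0.121, adjusted p = 0.224), and was detected on 1 of 3 untreated and 3 of 3 treated arrays. The change of XAF1 was 0.20 without background correction. IFI35 was at -0.19 (adjusted p = 0.386) and IFI6, a small membrane protein, at -0.15 (adjusted p = 0.471).

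No gene of the class I pathway was called. B2M, the light chain of every class I molecule, read 11.20, 11.12 and 11.06 without doxycycline and 11.11, 11.26 and 10.86 with it. Its change was -0.050 with an interval from -0.31 to 0.21, and its dimmer probe was at 0.13. HLA-E, a class I molecule read by natural killer cells, was at -0.24 (adjusted p = 0.381), lower in each pair, and HLA-F was at 0.21 (adjusted p = 0.537). Class I genes resemble each other closely, and whether these probes read other class I transcripts was not analysed here. TAP2, a subunit of the peptide transporter, was at -0.019 (adjusted p = 0.966), and TAPBP, the chaperone tapasin, which helps load peptide onto class I, was at 0.15 (adjusted p = 0.567) and higher in each pair. The interval of TAPBP ran from -0.10 to 0.39.

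Probes of 1 gene had changes of different sign for 5 of the 8 members with several tested probes: IFI44L, B2M, IFIT3, IFNAR2 and PARP9. The dimmer IFI44L probe met the detection rule only with its treated arrays, so its positive sign is no support for a change. In B2M, IFIT3, IFNAR2 and PARP9 every probe had an unadjusted p of 0.198 or more (limma), so a true difference in sign was not shown. IFI44L was the only one of the 5 in which either probe was called. Over all probes tested, 0.682% were called, and among the 48 probes of members the brighter IFI44L probe was the 1 called.

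Other genes of the pathway were taken from lists of the same topics. Of 18 further interferon-stimulated genes measured, none was called and 13 had changes below 0 (56.6% of all genes), with a median of -0.084. An unadjusted p under 0.05 was found for 4 on the lower side (6.61% of all genes) and 1 on the higher side (8.09%). SAMD9, an antiviral factor, was at -0.48 (adjusted p = 0.221) and fell with the replicate block (adjusted p = 0.0431), the fit in which 0.447% of all genes were called lower. UBE2L6, the conjugating enzyme for ISG15, was at -0.42 (adjusted p = 0.128, with the block 0.0550), and GBP2, a guanylate-binding protein, at 0.35 (adjusted p = 0.633). Of 15 further genes of interferon signalling and sensing none was called and 0 had an unadjusted p under 0.05, with a median of -0.082 and changes from -0.27 to 0.21. Of 10 further class I genes none was called either, 2 had an unadjusted p under 0.05 on the lower side (6.61% of all genes), and the median was 0.017, with RFXAP, a subunit of the RFX complex at MHC promoters, at -0.27 (adjusted p = 0.246). The 2 measured of 12 class II genes were at 0.011 and 0.073.

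No marker of another cell type was called. On the lower side 1 immune marker, CD14, had an unadjusted p under 0.05 (6.61% of all genes). CD14 lay near background, with detection on 3 of 3 untreated and 1 of 3 treated arrays. It met the detection rule only with its untreated arrays, so its lower level is no support for a change. On the higher side 1 stromal or endothelial marker, LUM, had an unadjusted p under 0.05 (8.09% of all genes). Of 8 epithelial markers 5 were measured, and their summed linear signal ranged from 4416 to 5247 without doxycycline and from 4031 to 5346 with it. Of 8 luminal prostate markers only STEAP2 was measured, at 93.5 to 127 without and 95.9 to 132 with doxycycline. Of 10 immune markers CD14 and CD68 were measured, with summed signals of 168 to 214 without and 143 to 193 with doxycycline, and 4 of 8 stromal and endothelial markers ranged from 2306 to 2599 and from 2205 to 2732. Most of the other markers had no probe named to them here, and the part of other cells in the results was not tested. In such bulk samples fewer expressing cells and less RNA per cell cannot be told apart.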

How the data were processed

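RNA of 6 samples of PC3 cells was measured on Illumina bead arrays, 3 without and 3 with doxycycline. The authors deposited a linear probe intensity for each array with a detection p-value against negative controls, without normalization between arrays, and a table of quantile-normalized log2 values. The submitters' processing notes name lumi, with no version. Scanner software is not given in the sources used here. Each p-value column fell with the intensity of the array before it.

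Intensities were corrected and quantile-normalized with neqc (offset 16) in limma 3.58.1 and R 4.3.3. The brightest tested probe stood for a gene. Probes of the deposited log2 table were named through the platform annotation, with 13977 of 17925 having 1 gene, 4 several and 3944 none. The intensity table held 47231 probes, and those outside the 17925 were not named. Symbols were updated through RefSeq of GRCh38.p14. Groups were compared across all genes with lmFit and eBayes (two-sided), and the script was tested on simulated data. The number of arrays limits precision. Over genes, deviations from the group means correlated at 0.454, 0.523 and 0.299 between the arrays of replicate number 1, 2 and 3, so the numbers were taken to pair the samples. That pairing was read from the same values that the blocked fit tests, and the labels do not give it. The blocked value is given where it changes a call or count. It is also given for IFIH1, OAS1, OASL, ISG20, SP110 and UBE2L6, whose calls it did not change, and not for every other gene. The blocked fit was not repeated with an array left out.

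Members and lists were chosen with earlier results of these data known. Every array value is given for members called in either fit, for the 12 largest changes and for genes whose probes differ in sign with the larger at 0.2 or more. IFIT1, IFIT2, IFIT3, OAS3, ISG15, B2M and IFNAR1 were added after their values had been seen.

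The alternatives were no background correction, the deposited log2 table, an offset of 50, other detection filters, the mean of a gene's probes, the replicate block, array weights, an intensity trend and leaving out each array.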

Additional observations from a re-analysis of the deposited data

How the results depend on the processing

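Against 53 called genes, 81 passed without background correction, 81 on the deposited table, 80 with an offset of 50, 30 without a detection filter, 177 with the replicate block, 207 with array weights and 100 with an intensity trend, and from 1 to 9 when an array was left out. Of the members, 1 was called, 2 with the replicate block, 0 for the mean of probes and 0 to 0 when an array was left out. Of their probes, 1 was called, 0 without a detection filter and 0 to 1 when an array was left out. The median change of the members stayed below 0 in every alternative run, from -0.17 to -0.095. Leaving out 1 array moved the change of 26 of the 39 members by over 1.5 times, and those of the other 13, IFI44L, DDX60, IFIH1 and OAS1 among them, by less. The replicate block changed no other member's call than that of DDX60. Averaging probes turned B2M to 0.039, IFNAR2 to 0.015 and PARP9 to 0.093. Leaving out 1 array gave both signs for B2M (-0.14 to 0.058), EIF2AK2 (-0.080 to 0.059), HERC6 (-0.031 to 0.22), IFIT1 (-0.34 to 0.12), IFIT2 (-0.63 to 0.058), IFIT3 (-0.28 to 0.096), IFIT5 (-0.023 to 0.19), IFNAR2 (-0.12 to 0.013), PARP9 (-0.12 to 0.067), RIGI (-0.37 to 0.081) and TAP2 (-0.19 to 0.11), none of them called; the cause was not tested. Slide as a block was not run, because the files used give no slide.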

Other observations

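The 5 probes of members that did not reach the detection rule were left out of every comparison. The TAP1 probe, for a subunit of the peptide transporter, read 4.82, 5.14 and 4.70 on replicates 1 to 3 without doxycycline and 5.40, 5.66 and 4.68 with it, and was detected on 0 of 3 and 2 of 3 arrays. The other 4 belonged to SP110, TAP2 and TAPBP, which each had a brighter tested probe.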
